A study of Drosophila melanogaster with 2 samples.

Results

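Dense clusters of Ets96B binding summits were short stretches of the Drosophila melanogaster genome in which many ChIP-seq peaks lay side by side. They were chosen by the positions of the summits alone, a summit being the point of a peak that the authors marked as its centre of enrichment. The reproducible list keeps the peaks that passed a filter on agreement between replicates, and each peak carries the authors' signal value, a score with no stated scale that ranks peaks within a list. A summit was a cluster member when at least 4 other summits of the reproducible peak list lay within 5000 bp of it on the same chromosome arm, and members within 5000 bp of each other were merged. Of 8015 reproducible summits, 1056 were members (13.2%, 95% exact Clopper-Pearson interval 12.4 to 13.9), and they formed 249 clusters. The other 6959 reproducible summits serve as the comparison. Because the positions selected the members, their number, spacing and signal are given as descriptions, and no test over summits was made, since the summits of a cluster share a region.

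The samples were 2 biological replicates of 1 group, numbered 2 and 3, of whole prepupae aged 24 h, both sexes pooled. All animals came from a transgenic line that stably makes Ets96B with green fluorescent protein at its C terminus, and the fusion was pulled down through that tag. The group has no second condition to be compared with. Whole animals mix all tissues, and the cells a summit comes from cannot be told apart. The number of peaks is fixed at 30000 in each replicate list, and read depth is unknown.

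Ets96B belongs to the ETS transcription factors, among them to the PEA3 subfamily. ETS factors bind DNA through a winged helix-turn-helix domain that reads a GGA core, and in many animals several of them act downstream of receptor tyrosine kinases. Regulatory regions of developmental genes in flies often spread over several enhancers, in introns and in the intergenic space around the gene. ChIP-seq of many factors in flies marks some of the same open regions, so a peak shows where the tagged protein was recovered with DNA and not that a gene is regulated from there.

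The DNA under the members was rich in A and T, which the windows of 101 bp around the strongest summit of each of the 8 largest clusters show. The sequences are from the + strand of dm6 (RefSeq copy), and capitals mark runs of at least 6 A or T bases.
tara and mtSSB cluster, chr3R:16224470-16224570: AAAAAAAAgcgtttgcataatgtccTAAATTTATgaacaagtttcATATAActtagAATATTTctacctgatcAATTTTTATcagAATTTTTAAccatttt
CG18404 and heca cluster, chr3R:30272662-30272762: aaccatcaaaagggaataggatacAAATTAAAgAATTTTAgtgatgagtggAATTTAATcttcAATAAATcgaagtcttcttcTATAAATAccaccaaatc
CG5151 and CG33795 cluster, chr3L:16175783-16175883: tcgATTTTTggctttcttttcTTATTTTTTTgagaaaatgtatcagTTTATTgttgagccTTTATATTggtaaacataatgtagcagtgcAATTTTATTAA
hng3 and emc cluster, chr3L:738846-738946: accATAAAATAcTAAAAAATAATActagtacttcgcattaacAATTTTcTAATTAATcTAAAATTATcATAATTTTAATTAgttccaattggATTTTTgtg
Mnt cluster, chrX:3682292-3682392: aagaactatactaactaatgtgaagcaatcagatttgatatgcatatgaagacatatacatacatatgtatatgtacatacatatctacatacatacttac
Gr93a cluster, chr3R:21839725-21839825: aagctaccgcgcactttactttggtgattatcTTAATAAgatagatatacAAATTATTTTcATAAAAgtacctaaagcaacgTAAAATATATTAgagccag
Tis11 cluster, chrX:12665562-12665662: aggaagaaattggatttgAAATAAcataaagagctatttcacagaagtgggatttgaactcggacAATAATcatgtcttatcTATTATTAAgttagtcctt
second hng3 cluster, chr3L:762469-762569: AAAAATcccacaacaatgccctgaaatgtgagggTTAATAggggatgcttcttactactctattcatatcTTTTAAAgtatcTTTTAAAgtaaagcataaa
The windows held 22.8% G+C at tara, 28.7% at CG18404, 25.7% at CG5151, 19.8% at the hng3 and emc cluster, 26.7% at Mnt, 29.7% at Gr93a, 30.7% at Tis11 and 31.7% at the second hng3 cluster. Windows 400 bp to the sides of the same summits held 55.9%, 52.5%, 56.4%, 49.5%, 44.1%, 41.6%, 48.0% and 43.6% in that order, so each window was poorer in G+C than its sides. The hng3 and emc window held the homeodomain core word TAATTA 2 times and had 62 bases in long A or T runs. The Mnt window had no run of 6, and its longest was 5 bases.

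Both members of the small clusters in introns of mnb, which encodes the fly DYRK kinase Minibrain, and of tara are shown because pairs of summits about 200 bp apart were frequent in the clusters. The capitals have the same meaning.
mnb, stronger summit, chrX:17879413-17879513: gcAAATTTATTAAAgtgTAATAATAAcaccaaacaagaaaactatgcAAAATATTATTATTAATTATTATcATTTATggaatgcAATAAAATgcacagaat
mnb, weaker summit, chrX:17879614-17879714: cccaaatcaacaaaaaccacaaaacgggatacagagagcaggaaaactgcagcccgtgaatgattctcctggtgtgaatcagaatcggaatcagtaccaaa
tara, stronger summit, chr3R:16249954-16250054: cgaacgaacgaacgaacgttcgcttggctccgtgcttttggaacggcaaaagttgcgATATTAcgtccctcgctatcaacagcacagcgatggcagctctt
tara, weaker summit, chr3R:16250157-16250257: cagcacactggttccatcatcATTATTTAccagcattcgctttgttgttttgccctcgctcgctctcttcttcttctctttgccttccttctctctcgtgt
The stronger mnb summit had a signal value of 255 and a window of 20.8% G+C. The weaker one had 193 and a window of 44.6% G+C, with no long A or T run. At tara the order was the other way round, with 52.5% G+C at the stronger summit (209.6) and 46.5% at the weaker one (193.5).

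Under uniform placement of each arm's summits along that arm, Poisson arithmetic gives 28.3 summits with 4 or more others within 5000 bp, against the 1056 observed, a ratio of 37.3. The excess grew with the number of neighbours. Exactly 4 others were found for 524 summits (24.9 under uniform placement), exactly 5 for 318 (3.07) and exactly 6 for 144 (0.316). The most crowded summits had 10 others within 5000 bp, and both lay in the tara cluster. At the other end, 2278 summits had none, against 4385 under uniform placement. Uniform placement ignores genes, repeats and mappability, so the ratio describes crowding and nothing about its origin.

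**Figure D1:**
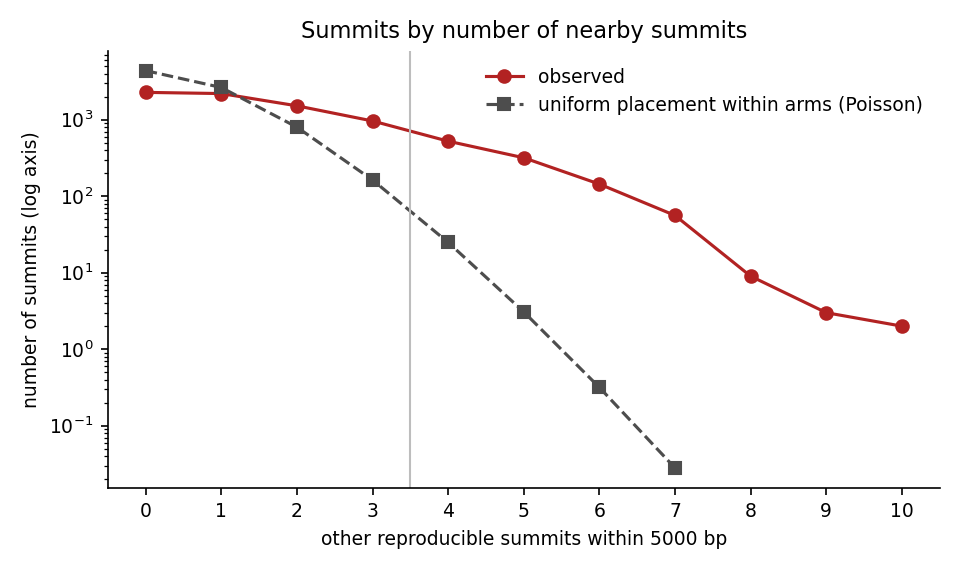
Number of reproducible summits (log axis) by the number of other reproducible summits within 5000 bp, as observed and as Poisson arithmetic gives for uniform placement within arms. The grey line marks the limit for membership: to its right lie 1056 observed summits, against 28.3 under uniform placement.

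The clusters were found on all long arms. Members made up 14.4% of the summits of 2L (211 in 54 clusters), 12% of 2R (164 in 38), 14.2% of 3L (262 in 67), 11.9% of 3R (217 in 48) and 13.6% of the X chromosome (202 in 42). The ratio to uniform placement ran from 30.8 on 3L to 52.4 on 2R. Chromosome 4 had 24 reproducible summits and 0 members, where uniform placement gives 0.000740. No summit there had more than 2 others nearby.

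Most clusters were small. The median cluster held 4 members over 3838 bp (quartiles 813 and 5455 bp), and 50 clusters consisted of 1 member whose neighbours did not reach the limit themselves. With 5 or more members there were 112 clusters, with 8 or more 25, and with 10 or more 9, which together held 119 members. All spans added to 1030 kb, or 0.769% of the arms. A further 611 reproducible summits lay within 5000 bp of a member without being members.

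Neighbouring summits were never closer than 199 bp, in the clusters and in the whole reproducible list alike. Of the 807 gaps between neighbours in a cluster, 82 (10.2%) fell between 199 and 210 bp, 23 between 211 and 300 bp and 5 between 301 and 500 bp. Another 278 gaps (34.4%) fell between 501 and 1000 bp and 332 (41.1%) above 1000 and up to 2500 bp, with a median of 1017 bp. Of the 8009 gaps of the whole list, 264 (3.30%) fell between 199 and 210 bp, 82 between 211 and 300 bp and 15 between 301 and 500 bp. There, 11.1% fell between 501 and 1000 bp and 18.4% above 1000 and up to 2500 bp. The cluster rule itself selects short gaps. Of the 105 neighbouring members within 300 bp, 45 had the same peak interval and the others had intervals of their own. In all, 9.66% of members (102) shared an identical interval with another summit, against 2.49% of the other summits (173). Those with a stronger summit within 300 bp were 107 members (10.1%) and 239 other summits (3.43%). Their windows held 39.2% G+C on average in members and 39.7% in other summits, against 31.8% and 31.4% where no stronger summit was near. With such summits dropped, 776 members in 205 clusters were left.

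The largest cluster, at 3R:16205523-16238244, held 24 members over 32.7 kb between and within tara (FBgn0040071) and mtSSB. Tara is a SERTA-domain protein linked to Trithorax-group function and the cell cycle, and mtSSB binds single-stranded DNA in mitochondria. The cluster had 1 summit in the mtSSB promoter, 13 in intergenic sequence, 2 in other transcripts and 8 in introns of tara. Signal values ran from 174 to 2379 with a median of 527. The strongest members lay 1131 bp upstream of a tara start (2379, rank 77 of the reproducible list, ranks 101 and 69 in replicates 2 and 3) and in an intron 5869 bp upstream of another tara start (2201, ranks 89 and 119 in replicates 2 and 3). Of the 24 members, 16 had a summit within 100 bp among the 8015 strongest of both replicates, 4 of replicate 2 alone, 3 of replicate 3 alone and 1 of neither. A further pair of tara members formed a separate cluster in an intron, at 209.6 and 193.5, and both were near a top summit of replicate 3 alone.

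**Figure D2:**
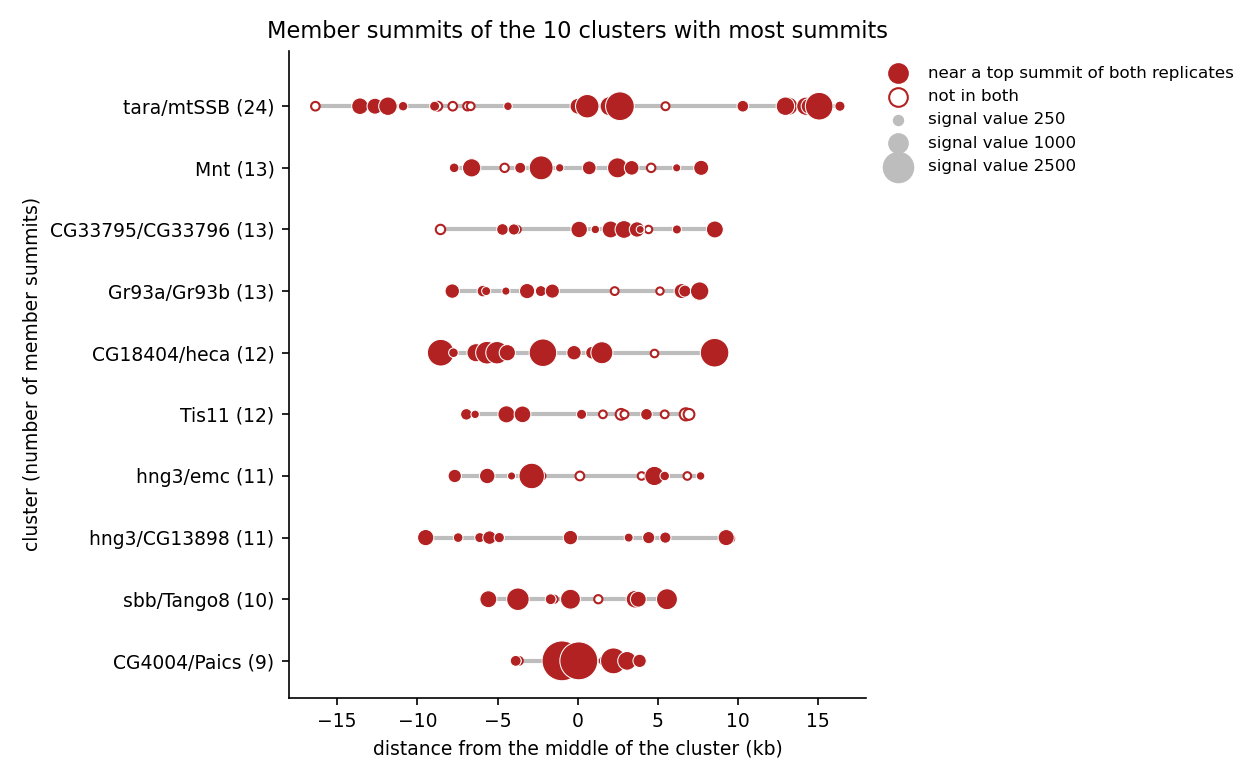
Member summits of the 10 clusters with most members, as distance in kb from the middle of each cluster, named by the nearest genes, with the number of members in brackets and clusters of equal size ordered by summed signal. The area of a circle is proportional to the signal value, and filled circles have a summit within 100 bp among the 8015 strongest of both replicates, as 16 of 24 do at tara and 11 of 12 at CG18404 and heca.

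Several clusters with 9 to 13 members lay inside 1 gene. Mnt, the Myc-antagonist bHLH repressor that pairs with Max, held 13 members (X:3676915-3692324), 11 in introns and 2 in promoters, with signal values of 191 to 1651 (median 352). Tis11, a zinc finger protein that promotes mRNA decay, held 12 (X:12663110-12677000), all intronic, with a highest value of 843. Of these 12, 6 were near a top summit of both replicates and the other 6 of replicate 3 alone. The corepressor gene sbb held 10 intronic members, and mtgo, tna, shn, tou and ush held 9 each. The highest value of these 9-member clusters was 4906 in an intron of ush, which encodes the FOG-type partner of GATA factors. That summit was ranked 5 in the reproducible list and 6 in both replicates, and it lay 1399 bp upstream of cbt, a Kruppel-like zinc finger gene. The remaining 8 members at ush ran from 156 to 2063, so 1 summit carried most of the signal.

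Mostly away from gene bodies, 13 members lay near CG5151 and CG33795 (3L:16164389-16181502) with values up to 911. Another 13 lay around the gustatory receptor gene Gr93a, beside CASK, a scaffold gene, and Gr93b, another gustatory receptor gene (3R:21824344-21839990), with values up to 975. The region between CG18404 and heca (3R:30255630-30272712) held 12 members and had a median of 1170, with 6 members at 1000 or above. Around CG4004 and Paics (X:12748437-12756165), 9 members, 2 of them in CG4004 and 5 in other transcripts, included values of 4569 and 4137, ranked 2 and 17 in replicate 2 and 25 and 9 in replicate 3. Near Cyt-c1L and eEF1gamma 8 members reached 3669, and between Ids and sty 8 had a median of 826. Near CheA75a 8 had a median of 518, and near CG6168 9 had a median of 359.

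The clusters around hng3 held 11 members each. The first had 3 members in promoters, 5 in introns and 3 between genes, and ended at the start of emc, which lies within the span of hng3 on the other strand and encodes an Id-type inhibitor of bHLH proteins. Its strongest member (1876) lay in the hng3 promoter and the second (1070) in an intron of hng3, upstream of emc. All 11 members of the second lay between genes.

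High signal did not need many members. In introns of osa, which encodes the ARID subunit of the Brahma remodelling complex, 6 members had values of 2664, 187, 699, 213, 1140 and 3995 in order along 3R. The last was ranked 14 in the list, 20 in replicate 2 and 11 in replicate 3. At ph-p, a Polycomb repressive complex gene, both members lay in promoters and had values of 2533 and 3489. In the 9-member cluster of Raf, the MAP kinase kinase kinase, all members were near a top summit of both replicates, and their values ran from 204 to 2182 with a median of 959. Among clusters of 2 or more members, those with most summits per kb were pairs about 200 to 300 bp apart. They lay at Sdc (syndecan; 338 and 209), mnb, E23 (343 and 278), tara and ex (633 and 258). At Sdc, mnb and E23, only 1 member of each pair was near a top summit of both replicates. Both members were at ex and neither at tara.

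Signal values of members, which are the authors' own scores, had a median of 347 (quartiles 213 and 719), against 288 (197 and 497) in the other summits. Members were 5 of the 20 strongest summits, 21 of the strongest 100 and 98 of the strongest 500 (19.6%, 16.2 to 23.4), against 59 of the weakest 500 (11.8%). Both sets went down to 148, so weak summits were counted in clusters too. Just inside the limit, the 524 summits with exactly 4 others had a median of 330 and 17.9% in promoters. Just outside it, the 963 with exactly 3 others had 335 and 20.1%, so values on both sides of the limit were close.

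The replicates showed the clusters with some spread. When the rule was applied to each replicate's own 8015 strongest peaks, replicate 2 gave 236 clusters with 1013 members and replicate 3 gave 234 with 1027. Of the 249 clusters, 158 (63.5%) overlapped a cluster of replicate 2, 175 (70.3%) one of replicate 3, 134 (53.8%) one of both and 50 neither. Counted as summits in or within 5000 bp of the span, 195 clusters had 5 or more in replicate 2, 207 in replicate 3 and 174 in both. Both replicates entered the reproducible list, so these counts give the spread between them and do not test the choice of clusters.

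Overlap with replicate clusters rose with cluster size. All 42 clusters with 7 or more members overlapped clusters of both replicates. The share was 49 of 70 with 5 or 6 members, 40 of 87 with 2 to 4 and 3 of 50 with 1 member. Overlap was counted on the spans, and a cluster of 1 member is 1 position, so larger clusters overlap more easily. Counted with 5000 bp to each side, 26 of the 50 clusters of 1 had 5 or more summits in replicate 2 and 33 in replicate 3. With 2 to 4 members these were 67 and 71 of 87, and with 5 or 6 members 60 and 61 of 70. That count also covers a longer stretch for wider clusters. The median of the strongest summit also went with size, at 262 for clusters of 1, 773 for 2 to 4, 1013 for 5 or 6 and 1318 for 7 or more. The strongest of many summits is higher than the strongest of few by counting alone, so this rise does not show stronger members. Taken one by one, members had a replicate summit nearby about as often as other summits: 85.5% (83.2 to 87.6) of members were within 100 bp of a top summit of replicate 2 and 90.7% (88.8 to 92.4) of replicate 3, against 84.5% and 91.0% of the other summits.

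**Figure D3:**
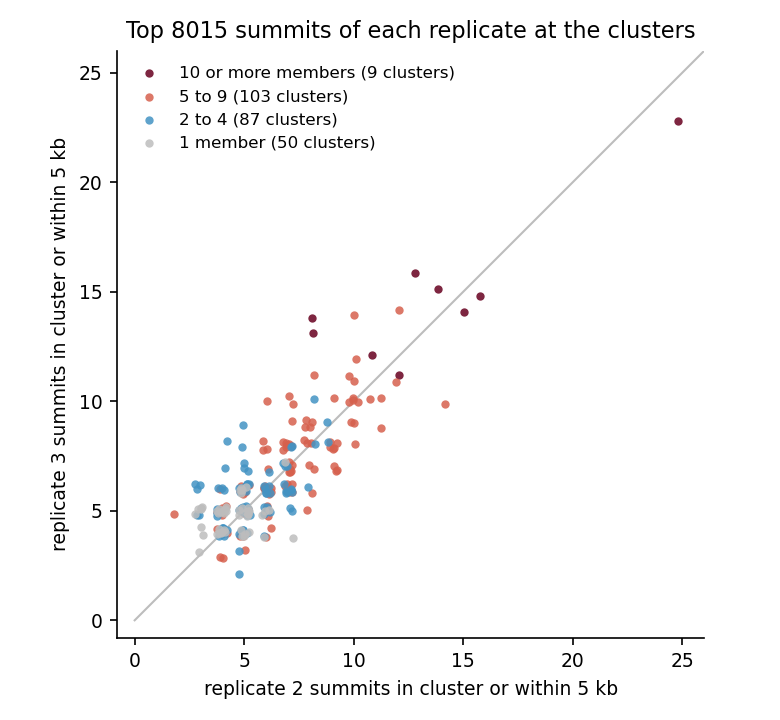
For each of the 249 clusters, the number of summits of replicate 2 (x axis) and replicate 3 (y axis) in the cluster or within 5000 bp of it, taken from each replicate's 8015 strongest, with small random shifts so that points do not hide each other. The line marks equal counts, and the tara cluster stands at 25 and 23.

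Members lay in promoters less often than the other summits and more often in introns and between genes. Promoters, defined as within 500 bp of a protein-coding start, held 14.8% of members (156, 12.7 to 17.1), against 33.1% of other summits (2300, 31.9 to 34.2) and 11.5% of the bases of the arms. Introns held 50.6% (47.5 to 53.6), against 43.5% (42.3 to 44.6) and 39.3% of bases. Intergenic sequence held 30.1% (27.4 to 33.0), against 19.6% (18.6 to 20.5) and 24.9% of bases. Coding exons held 1 member and 8 other summits, although they make up 13.9% of bases. The intervals cover counting error only and treat summits of a cluster as separate. Summits with no other nearby were in promoters in 40.7% of cases, and members of clusters built with at least 6 others in 6.07%. With 2500 bp in place of 5000 bp, introns held 43.9% of 180 members and 44.4% of the others, so the order of the intron shares turned there.

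**Figure D4:**
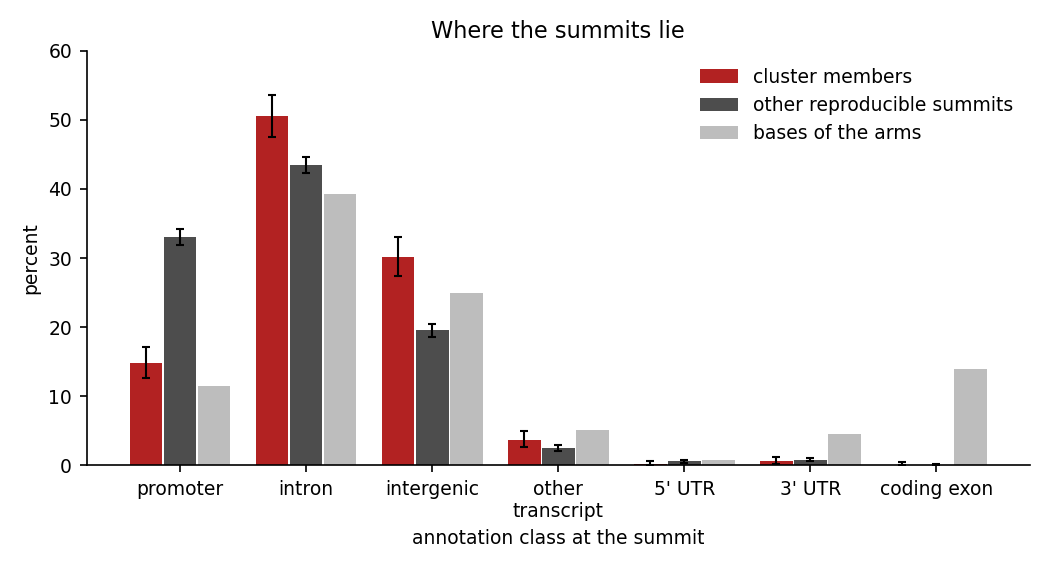
Share of cluster members, of other reproducible summits and of the bases of the arms in each annotation class, with 95% exact intervals for the summits (counting error only). Promoters hold 14.8% of members and 33.1% of other summits.

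Promoter members were less often at shared promoters. Of 156, 15 (9.62%, 5.48 to 15.4) lay within 500 bp of the starts of more than 1 gene, against 757 of 2300 other promoter summits (32.9%, 31.0 to 34.9). They lay upstream of the nearest start in 68.6% (60.7 to 75.8), against 79.2% (77.5 to 80.8). The median distance from a start was 3545 bp in members and 1706 bp in other summits. Members had on average 0.977 genes with a start within 5000 bp, against 1.55 for other summits and 1.04 for a position on the arms. Thus the sequence around members held fewer gene starts than that around other summits, at about the density of the arms.

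Of the 249 clusters, 135 (54.2%, 47.8 to 60.5) lay whole inside 1 protein-coding gene, and 74 (29.7%) had no member in the body of one. A cluster of 1 member cannot cross a gene edge, and of the 199 clusters with 2 or more members 101 (50.8%) lay whole inside a gene. The share for stretches of equal length elsewhere was not computed. All members were intronic in 94 clusters (67 of them with 2 or more members), intergenic in 51 and in promoters in 14 (8 with 2 or more). A promoter member was present in 88 clusters (35.3%). In 21 the promoters belonged to 2 or more genes and in 4 to at least 4 genes. Those were the clusters of CG8814, brat, scramb2 and CG44838. The brat cluster, named for a TRIM-NHL repressor of translation, had promoter summits of brat, AsnRS, Polr1D and DCTN6-p27 at 200 to 318, but its strongest members were intronic, at 1224 and 1633. The fifth in that order was CG32767, with promoters of CG15465, CG32767 and rg and a highest value of 713.

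Genes that hosted clusters were long. The 156 genes that named a cluster by holding its members had a median length of 24.4 kb, against 2.17 kb for all 13945 protein-coding genes. Longer genes hold more positions of any kind, and the length of genes that host other summits was not measured. A cluster lay on the body or within 5000 bp of 430 of the 13945 genes (3.08%). The share was 1.88% for genes under 5 kb, 4.45% for 5 to 20 kb, 9.35% for 20 to 50 kb and 18.6% for longer genes. Per length, members numbered 1.37 per Mb of gene body under 5 kb, 8.20 at 5 to 20 kb, 9.90 at 20 to 50 kb and 7.46 above, so density did not keep growing with length. Most members in 1 gene were found in CG1677 (19 in 3 clusters), shn (16 in 2), Tlk (15 in 2) and Mnt (13 in 1). Tet, the gene of a DNA and RNA dioxygenase, had 10 members in 4 clusters.

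Gene groups were read against that 3.08% and against their length, and no enrichment was tested. A gene was counted when a cluster lay on its body or within 5000 bp, so a counted gene need not hold a member. Over all genes, 1.25% had a member in the body. Genes near 1 cluster were each counted, and the intervals treat them as separate. The receptor tyrosine kinase and Ras list had a cluster at 11 of 41 genes (26.8%, 14.2 to 42.9, median length 15.1 kb). In this list, the ETS repressor gene aop had clusters of 4 and 5 members, with highest values of 1558 and 880.5. The ETS activator gene pnt had 5 intronic members (166 to 607), and the repressor gene cic 7 intronic members (166 to 383). Raf had 9, RasGAP1 4 with a highest value of 1331, S 3, and Egfr and puc 1 each (181.5 and 202). Shc, aos and sty, genes of an adaptor, a secreted inhibitor of Egfr and the antagonist Sprouty, had clusters nearby but no member in their bodies.

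The other signalling lists had shares from 0 to 27.3%, with wide intervals. The Dpp list had 6 of 22 genes (27.3%, 10.7 to 50.2). The zinc finger gene shn had clusters of 7 and 9 members, with highest values of 2220 and 1828, the receptor gene tkv 4 (up to 1222), and the inhibitory Smad gene Dad 3 (up to 460). Snoo had 1 member at 1466. The 8 members nearest to brk, the repressor of Dpp targets, lay in an intron of CG1677, 750 to 7382 bp from the brk start. The Wnt list had 6 of 26 (23.1%). The coreceptor gene arr had 7 members, the ligand gene Wnt2 5, and the receptor genes fz 4 and fz2 2. The glypican gene dlp had 2, and 5 lay near but outside the body of the glypican gene dally. The gene dally was counted in the Dpp list too. The Notch list had 6 of 23 (26.1%), with 6 and 1 members at mam, 1 at bib and 6 near fng. The remaining 3, genes of the Enhancer of split complex, were all counted through 1 cluster of 4 members with values up to 2486. Only 2 of the 6 genes, mam and bib, had a member in the body. Hippo had 3 of 16 (18.8%): kibra with 5 members in its body, and crb and ex with none in theirs. Hedgehog had 1 of 11 (ptc, with 6 members up to 1292, 1 of them in its body) and JAK-STAT 0 of 12 (interval up to 26.5%).

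Among regulators, the ecdysone list had 6 of 29 genes (20.7%, 7.99 to 39.7), 4 of them with a member in the body. The gene of tai, a coactivator of the ecdysone receptor, had 5 members, the nuclear receptor gene Hr4 4 (up to 1687) and E23 2. Outside the body of mamo lay 2, and Eip63E and ImpE2 were at 1 cluster of 3, with no member in the body of ImpE2. The BTB and zinc finger list had 6 of 40, with psq (7) and bab1 (3) besides ush, cbt, lola and mamo. Of these, 4 had a member in the body, and cbt and mamo had none there. The Polycomb, Trithorax and remodelling list had 5 of 39 (12.8%; osa, kis, ph-p, phol and skd). Of these, 3 had a member in the body, and phol and skd had none there. The circadian list had 1 of 12, which was vri, a repressor of the clock, with 7 members up to 2121. Homeobox genes outside the Hox clusters had 2 of 60 (3.33%, 0.406 to 11.5; hth and pdm3) and Hox genes 0 of 8 (interval up to 36.9%). The gene hth had 2 clusters of 1 member each, at 264.5 and 157.

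The remaining lists had shares from 0 to 7.32%. Insulin, TOR and lipid storage had 2 of 28 genes (7.14%; Sik3 and the lipase gene bmm), cell recognition and adhesion 3 of 41 (7.32%; fra, kirre and robo2), glia 1 of 16 (pnt) and apoptosis and autophagy 1 of 29 (Diap1, with 3 members). Cytosolic ribosomal protein genes had 3 of 88 (3.41%) and chemoreceptor and odorant-binding genes 3 of 230 (1.30%), none with a member in its body. No gene had a cluster among 26 muscle genes, 73 mitochondrial ribosomal protein genes, 48 proteasome genes, 70 Cpr cuticle genes and 54 dpr, DIP, beat and side genes. In that order, the exact intervals reached up to 13.2%, 4.93%, 7.40%, 5.13% and 6.60%. All of these limits are above 3.08%, so the counts of 0 do not set the lists apart from all genes. The dpr, DIP, beat and side list has a median length of 36.2 kb. The lists of ribosomal, proteasome and Cpr genes have medians of 0.909 to 1.38 kb.

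Sequence words were searched within 50 bp of the summit on both strands. The homeodomain core TAATTA was in 8.90% of member windows (94, 7.25 to 10.8), against 11.3% (10.6 to 12.1) in other summits, and in 5.30% and 5.42% of the windows 400 bp to the sides. The ETS word (C, then A or C, then GGAA, then A or G) was in 1.70% of member windows (18, 1.01 to 2.68), against 2.56% (2.20 to 2.96), and in 3.41% and 4.10% of side windows. None of the 156 promoter members held it (0 of 156), against 3.26% of the 2300 other promoter summits. A count of 0 allows a share of up to 1.92% (3 counts in 156, for counting error only, not an exact interval). Outside promoters the ETS word was in 2.00% of 900 members and 2.21% of 4659 other summits, so the shares there were close. The same word read backwards without complement was in 2.18% and 1.78%, against 2.32% and 3.38% of side windows. In promoters the backward word was in 1.92% of members and 1.43% of other summits. Thus the ETS word was no more frequent at the members than beside them, where G+C content was higher (44.7% against 32.5%). The word shares were not adjusted for base composition.

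The word of GATA factors (A or T, then GATA, then A or G) was in 21.1% of member windows (18.7 to 23.7) and 23.2% of other windows, against 13.9% and 14.6% of side windows. GAGAG was in 10.4% and 10.2%, against 19.0% and 14.3% at the sides, so this word was at a lower share at the summits than beside them in both sets. The E-box CANNTG was in 29.6% and 32.0%, against 42.2% at the sides of both. The AP-1 word (TGANTCA with C or G as N) was in 4 member windows (0.379%) and 0.877% of other windows, and CAGGTA, the word of the early activator Zelda, in 1.42% and 1.65%. The DRE word of housekeeping promoters was in 0.284% and 0.560%, a repeat of 4 CA units in 1.61% and 1.49%, and a tract of 8 A in 10.7% and 9.0%.

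Base composition at the summits was close in both sets. Member windows held 32.5% ± 9.58 G+C (SD, n = 1056), against 31.7% ± 9.17 (n = 6959) in other summits, while side windows held 44.7% and 44.6% and the arms 42.2%. The window was poorer in G+C than its sides for 83.5% of members and 85.2% of other summits. An A or T run of at least 10 bases was in 56.4% (53.4 to 59.5) of member windows, against 58.8% of other windows and 25.8% and 26.2% of the side windows at lower coordinates. The low G+C share of the opening sequences was thus found at members and at other reproducible summits alike.

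**Figure D5:**
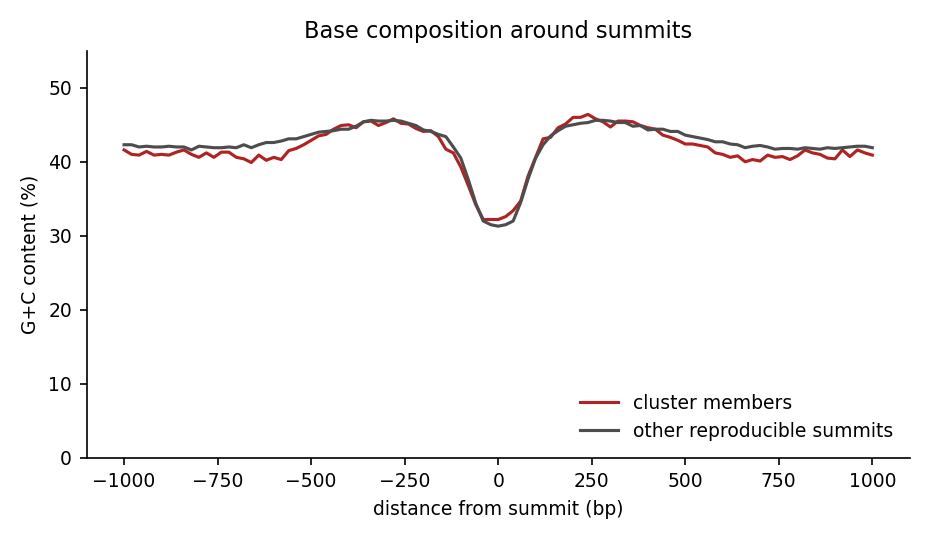
Mean G+C content by distance from the summit for cluster members and other reproducible summits. Both are lowest near the summit, at 32.2% in members and 31.3% in other summits.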

How the data were processed

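Peak lists of 2 biological replicates of 1 group were analysed. Per the labels and description files, each replicate list comes from its alignment and a control, the pooled list from both, and the reproducible list from an irreproducible discovery rate filter on these. The sources used here do not name the aligner or the peak caller, and the threshold is not given in them. The authors deposited for each peak a signal value (their own score, with no stated scale), a −log10 q-value that was the same for all reproducible peaks and was not used, and a summit offset, which gave the summit position. Coordinates are 1-based on dm6.

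Genes came from Ensembl release 115 (13945 protein-coding genes) and sequence from the RefSeq copy of dm6. Each summit was classed once, promoter before exon parts, intron, other transcript and intergenic. The cluster rule was tested on simulated data. A cluster was named by the protein-coding gene holding most of its members, otherwise by the nearest start. Named were the 20 clusters with most members, the 5 widest, the 5 with the highest summed signal, the 5 densest, the largest of each arm, the 5 with most promoter genes and those at 24 gene lists. Other named host genes were chosen after their values were seen. Members, lists and the 11 words were chosen with earlier results of these data known. In the lists, 6 symbols were not matched and are missing from the counts. They were Dl (Notch), d and ban (Hippo), calypso (Polycomb, Trithorax and remodelling), Tor (insulin, TOR and lipid storage) and draper (glia). Shares have 95% exact Clopper-Pearson intervals, for counting error only. Analysis used Python 3.11.15, pandas 2.3.3 and scipy 1.17.1.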

Additional observations from a re-analysis of the deposited data

How the results depend on the processing

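Cluster numbers depended on the rule. The promoter and TAATTA shares of members were below those of other summits under all 9 settings that changed the summits or the rule. These settings reuse the same peaks, so their common direction is not a test. Among the 4007 strongest summits, TAATTA was in 11.6% of 146 members and 12.4% of others. For at least 6 others the shares were 9.35% of 214 and 11.1%, and for 2500 bp 8.33% of 180 and 11.1%. Differences over so few members may be counting error. With at least 3 others there were 2019 members in 471 clusters (median span 4122 bp), with 17.3% in promoters, 50.9% in introns, 9.76% with TAATTA and 51.2% of clusters whole in a gene. With at least 6 others these were 214, 59, 2280 bp, 6.07%, 52.8%, 9.35% and 59.3%, at 32.9% G+C. With 2500 bp they were 180, 69, 1124 bp, 11.7%, 43.9%, 8.33% and 55.1%, at a median signal of 394, and with 10000 bp 2610, 433, 9111 bp, 18.1%, 51.1%, 10.2% and 38.3%, at 32.1% G+C. The 4007 strongest summits gave 146 members in 52 clusters (2333 bp), 11.6% in promoters, 50% in introns, 11.6% with TAATTA, 30.5% G+C, a median signal of 694 and 55.8% whole in a gene. With 1 summit per interval, promoters held 12.4% and introns 53.0%, G+C was 32.1% and 57.2% lay whole in a gene. With summits near a stronger one dropped, these were 10.8%, 54.1%, 31.7% and 58.5%, at a median signal of 384. Promoters within 200 bp held 7.01% (introns 54.6%) and within 1000 bp 21.1% (46.5%). TAATTA was in 4.64% of windows with 25 bp to each side and 16.7% with 100 bp, where G+C was 34.5%. Merging within 2500 bp gave 336 clusters, and all annotated genes 55.8% of clusters whole in a gene.

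With 1 replicate left out, the other's strongest peaks gave 1013 to 1027 members, 234 to 236 clusters, median spans of 4020 to 4334 bp, 15.7% to 16.3% in promoters, 51.9% to 52.0% in introns, 8.18% to 8.79% with TAATTA, 32.5% to 33.0% G+C and 51.7% to 52.5% of clusters whole in a gene. The median signal was not compared between replicate lists, whose scales may differ. The settings for introns and G+C were added after the data were seen. No paired analysis was possible because there is 1 group. Read depth is unknown, so its limit on weak members was not tested.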
